A study of Mus musculus with 4 samples.

Results

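The opioid system of the spinal cord was examined in mice of the NC/Nga strain, which develops a dermatitis in ordinary animal rooms and stays free of it in clean housing. The set comprised 8 genes, chosen by name: the opioid peptide precursor genes Penk, Pdyn, Pnoc and Pomc, and the opioid receptor genes Oprm1, Oprk1, Oprd1 and Oprl1. Every probe that the annotation of the Illumina BeadChip platform gives to any of them was taken, which found 11 probes for 7 genes, out of 45281 probes and 19057 named genes. The expression of Oprd1 was not analysed here. In RefSeq's gene table Penk lies on mouse chromosome 4, Pdyn and Oprl1 on chromosome 2, Pnoc on 14, Pomc on 12, Oprm1 on 10 and Oprk1 on 1.

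Total RNA of the cervical spinal cord was measured on 4 arrays, all from male NC/Nga mice aged 9 weeks. CV denotes the 2 arrays of mice in conventional housing with an atopic dermatitis phenotype, and SPF the 2 arrays of mice in specific-pathogen-free housing with a normal phenotype. Housing and skin phenotype changed together, so they cannot be told apart. The labels do not say whether the 2 arrays of a group came from separate mice, so errors and p-values measure only the spread between these arrays.

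Opioid peptides are cut from larger precursor proteins in the secretory granules of neurons. Penk encodes the precursor of the enkephalins, Pdyn that of the dynorphins, Pnoc that of nociceptin, and Pomc that of beta-endorphin, of corticotropin and of the melanocortins. The enkephalins and beta-endorphin act mainly at the mu and delta receptors (Oprm1 and Oprd1), the dynorphins at the kappa receptor (Oprk1) and nociceptin at the nociceptin receptor (Oprl1), all of which couple to inhibitory G proteins. In the dorsal horn, the part of the cord that receives signals from the skin, dynorphin acting at kappa receptors is known to dampen itch and enkephalin acting at mu and delta receptors to dampen pain.

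Both precursors and receptors included genes above background on all arrays and genes that were not. A probe counted as above background where its detection p, which the file gives for each array, was under 0.05. Of 6 precursor probes, 3 were above background on all 4 arrays (both probes of Pdyn and the probe of Penk), and of 5 receptor probes 4 were (the probe of Oprk1 and all 3 of Oprl1). The probe of Pnoc and a probe of Pomc were above background on 0 arrays. The further probe of Pomc and the probe of Oprm1 were each above background on 1 array. By array, 8 of the 11 probes were above background on each CV array, against 7 on each SPF array. The extra calls in CV were the single-array calls of Pomc (replicate 1) and Oprm1 (replicate 2). Over all probes the shares were 45.7% and 46.3% on CV replicates 1 and 2, against 45.3% and 44.9% in SPF.

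The deposited signals of the precursor probes seen on all arrays ran from 198.6 to 3801.9 and those of the receptor probes from 127.5 to 549.1, in bead intensity units on a linear scale. Both ends of the precursor range belonged to Pdyn, whose probes differed from each other on every array. The 3 Oprl1 probes likewise spread over most of the receptor range. Probes bind their targets with different strength, so these ranges describe probes and do not measure how abundant a precursor is relative to a receptor.

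**Figure D1:**
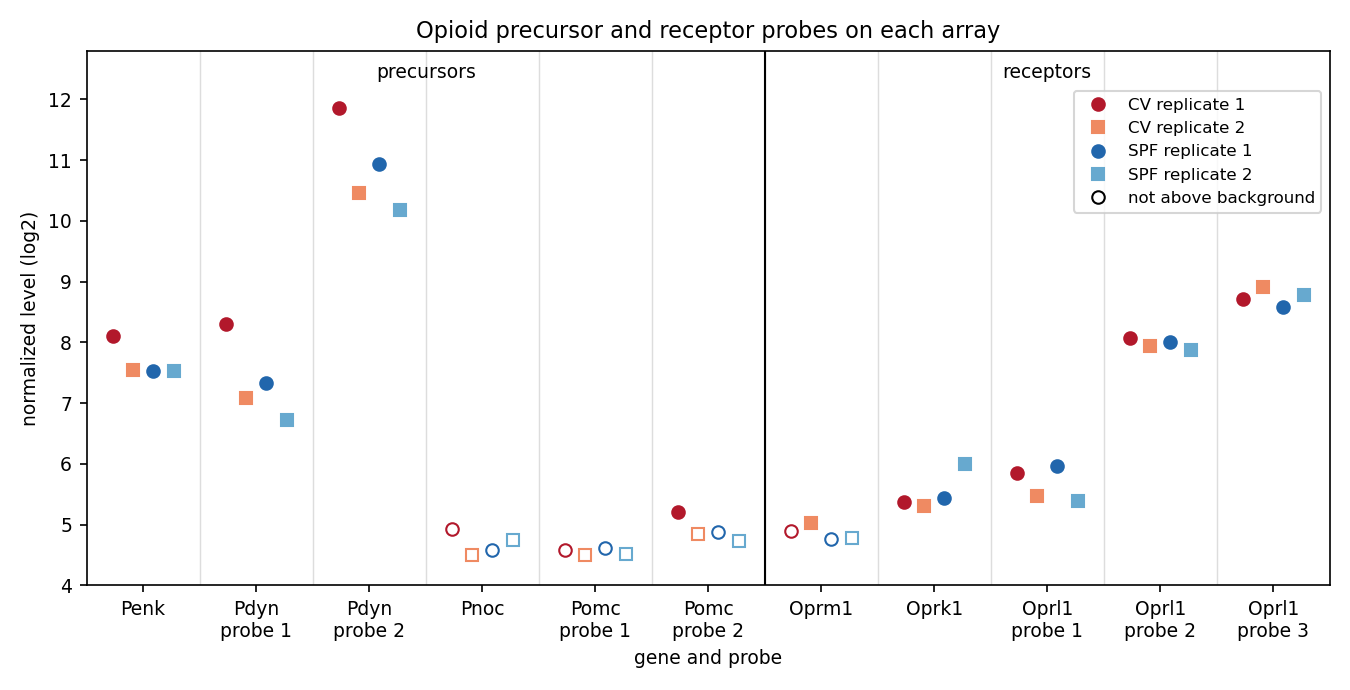
Normalized level (log2, vertical axis) of each of the 11 probes on the 4 arrays, precursors on the left and receptors on the right; filled symbols were above background on that array and open symbols were not. Pdyn was highest on CV replicate 1 with both of its probes, while Pnoc, Pomc and Oprm1 lay near background.

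In the comparison of CV with SPF cord, 0 of the 4 genes that could be tested (Penk, Pdyn, Oprk1 and Oprl1) passed limma's moderated test at an adjusted p of 0.05. The test covered 14634 features, that is 1 probe per gene plus unnamed probes, kept where a probe was above background on at least 2 arrays. Over all features 0 passed (0% of those tested), and 443 (3.03%) had an unadjusted p under 0.05, among them 0 of the 4 genes. Differences are CV minus SPF on the log2 scale after background correction and quantile normalization, with the model's standard error and n = 2 arrays per group. In 2 of the 4 genes, Penk and Oprk1, the groups did not overlap, as in 30.8% of all features. In RNA from whole tissue, fewer cells of a type and less RNA per cell cannot be told apart.

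Pdyn had the largest difference of the set and also the largest spread within groups. Its brighter probe gave deposited signals of 3801.9 and 1445.1 on the CV arrays (replicates 1 and 2), against 2094.2 and 1262.8 on the SPF arrays. After normalization the levels were 11.85 and 10.46 in CV and 10.94 and 10.18 in SPF. CV replicate 1 stood above both SPF arrays and CV replicate 2 lay between them, so the groups overlapped.

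The difference in Pdyn was 0.59 ± 0.44 (1.51-fold, 95% interval 0.734 to 3.10-fold, adjusted p = 1 in limma's test). The CV arrays lay 1.40 log2 units apart and the SPF arrays 0.76, both more than the difference between the group means. The standard deviation within groups, 0.79, was larger than that of 99.1% of all features, and 0.95% of features spanned a wider range over the 4 arrays. The value rested on CV replicate 1: without that array the difference was -0.11, without CV replicate 2 it was 1.29, without SPF replicate 1 0.97 and without SPF replicate 2 0.21.

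The dimmer Pdyn probe ordered the arrays in the same way. It gave levels of 8.30 and 7.09 in CV and 7.32 and 6.72 in SPF, a difference of 0.68 ± 0.39 in the fit with every kept probe as a feature. On both probes CV replicate 1 was highest, followed by SPF replicate 1, CV replicate 2 and SPF replicate 2. The spread of Pdyn between arrays was therefore seen with 2 separate probes on the same arrays.

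The stretches before the annotated starts of Pdyn are shown because Pdyn was the gene of the set that varied most between arrays. RefSeq's table (GRCm38.p6) lists 2 starts for Pdyn, both on the minus strand of chromosome 2, and the 250 bases before each are printed 5′ to 3′. Capitals mark the matches found among 5 motifs searched on both strands, which did not overlap.
Pdyn upstream start, chr2:129699939-129700188: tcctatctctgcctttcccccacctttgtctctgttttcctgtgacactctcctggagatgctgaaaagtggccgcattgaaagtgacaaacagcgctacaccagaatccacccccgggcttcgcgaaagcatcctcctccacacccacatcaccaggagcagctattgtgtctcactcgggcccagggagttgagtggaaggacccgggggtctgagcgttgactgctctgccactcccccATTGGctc
Pdyn downstream start, chr2:129698659-129698908: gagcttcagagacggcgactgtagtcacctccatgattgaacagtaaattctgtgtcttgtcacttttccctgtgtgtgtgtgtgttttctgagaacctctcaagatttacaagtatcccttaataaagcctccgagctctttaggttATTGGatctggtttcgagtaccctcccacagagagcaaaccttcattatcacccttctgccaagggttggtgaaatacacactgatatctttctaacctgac

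Each Pdyn window held 1 match to the CCAAT box, on the reverse strand, starting at base -8 from the upstream start and at base -102 from the downstream one. The letters CCAAT occurred in 33.8% of the 32851 windows of the same length in the table. Neither window held TATAAA (the TATA box, in 12.4% of all windows), GGGCGG (the GC box, 32.7%), TGACG (the core of the cyclic AMP response element, 17.8%) or TGANTCA (the AP-1 site, 6.75%). The share of G and C was 57.2% in the upstream window and 44% in the downstream one, against a median of 52.4% over all windows. Among the other members in the table, the window of Pomc held a TATA box starting at base -25 and a GC box, that of Oprd1 held 4 GC boxes, 2 of 3 windows of Oprm1 held a CCAAT box and 1 of 3 windows of Oprl1 held a TATA box.

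Penk was higher on 1 array. Its probe gave deposited signals of 362.9 and 266.2 in CV, against 279.4 and 278.5 in SPF. The normalized levels were 8.11 and 7.54 in CV and 7.53 and 7.53 in SPF. CV replicate 1 stood above the other 3 arrays, which lay within 0.01 log2 units of each other.

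The difference in Penk was 0.29 ± 0.23 (1.22-fold, 95% interval 0.838 to 1.78-fold, adjusted p = 1 in limma's test), and without CV replicate 1 it was 0.01. Without CV replicate 2 it was 0.57. Both CV arrays were above both SPF arrays, as in 15.6% of all features, but by 0.0052 log2 units. In the deposited signals, after median scaling and after cyclic loess, the Penk groups overlapped.

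Pnoc and Pomc were not tested, since no probe of theirs was above background on 2 arrays. The probe of Pnoc gave signals of 114.1 and 97.9 in CV and 100.4 and 113.1 in SPF, with detection p-values between 0.108 and 0.787. The brighter Pomc probe gave 123 and 113.8 in CV and 112.5 and 112.2 in SPF, and was above background on CV replicate 1. The detection p-value of that array was 0.0203. The dimmer Pomc probe stayed between 98 and 102 on all 4 arrays. These signals lie close to the arrays' median signals, 113.6 and 116.4 in CV and 114.1 and 119.4 in SPF, so a change in either gene was not detectable here.

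Pomc is expressed at high levels in the pituitary, and of 6 pituitary markers 5 had a probe and 1, the growth hormone gene Gh, was kept. The other 4 with a probe were not above background on any array. Gh had levels of 7.39 and 5.40 in CV and 4.89 and 8.61 in SPF. Gh was highest on SPF replicate 2 and next on CV replicate 1, the array on which Pomc was above background, and its part in the Pomc signal was not tested.

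Among the receptors, Oprk1, the receptor of the dynorphins, did not pass the test. Its level was lower in CV cord with no overlap between the groups, as in 15.1% of all features. Its probe gave deposited signals of 127.5 and 127.6 in CV, against 130.8 and 156.8 in SPF. The normalized levels were 5.37 and 5.30 in CV and 5.44 and 5.99 in SPF. SPF replicate 2 stood apart from the other 3 arrays, which lay close together just above background.

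The difference in Oprk1 was -0.38 ± 0.25 (1.30-fold lower, 95% interval 0.508 to 1.16 as CV over SPF, adjusted p = 1 in limma's test). Both CV arrays were below both SPF arrays, as in 15.1% of all features on the normalized scale. There CV replicate 1 differed from SPF replicate 1 by -0.07 log2 units. The groups were also separate on each of 6 scales compared, but all of these start from the same signals, so their agreement adds no support. Without SPF replicate 2 the difference was -0.11, and without SPF replicate 1 it was -0.66. Its size also depended on the background correction: it was -0.13 with none and -0.06 in the authors' deposited table. Detection p-values were 0.0107 and 0.0171 in CV and 0.0128 and 0.00321 in SPF, so at a limit of 0.01 the probe would count as above background on SPF replicate 2 and on no other array.

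Oprl1, the nociceptin receptor, varied least within groups among the 4 tested genes. Its brightest probe gave signals of 510.2 and 549.1 in CV and 488.5 and 531.6 in SPF, or 8.71 and 8.91 against 8.59 and 8.78 after normalization. The replicate 2 arrays were the higher ones in both groups, and the groups overlapped (not so after median scaling, where both CV arrays were above both SPF arrays).

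The difference in Oprl1 was 0.13 ± 0.16 (1.09-fold, 95% interval 0.841 to 1.42-fold, adjusted p = 1 in limma's test). A standard deviation within groups of 0.14 was larger than that of 40.6% of features. The middle Oprl1 probe, at 8.07 and 7.94 in CV and 8.004 and 7.88 in SPF, differed by 0.07 ± 0.17. The dimmest, at 5.86 and 5.47 in CV and 5.96 and 5.39 in SPF, differed by -0.02 ± 0.27. The 3 probes did not share an order of the arrays. In the middle and dimmest probes the replicate 1 arrays were the higher ones in both groups, unlike in the brightest. The middle probe had the same order of arrays as Pdyn. Nociceptin's receptor was thus above background on all arrays with 3 probes, while the probe of its precursor gene Pnoc was on 0 arrays. Pnoc had no further probe. The neuronal marker genes Snap25 and Nefl likewise had no probe above background on any array, so a silent probe does not show that a gene is not expressed.

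Oprm1, the mu receptor and the main target of morphine, was not tested. Its probe gave signals of 113.1 and 119.7 in CV and 108.5 and 114.4 in SPF. It was above background on CV replicate 2, narrowly, with a detection p-value of 0.0492. The detection p-values of the other arrays ran from 0.127 to 0.249. With probes above background on at least 1 array admitted to the fit, Oprm1 differed by 0.19 ± 0.21 and Pomc by 0.23 ± 0.23. Both had an adjusted p of 1 in limma's test. Each was admitted through 1 CV array and no SPF array, a filter that favours a higher value in CV. These differences therefore do not measure a change.

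**Figure D2:**
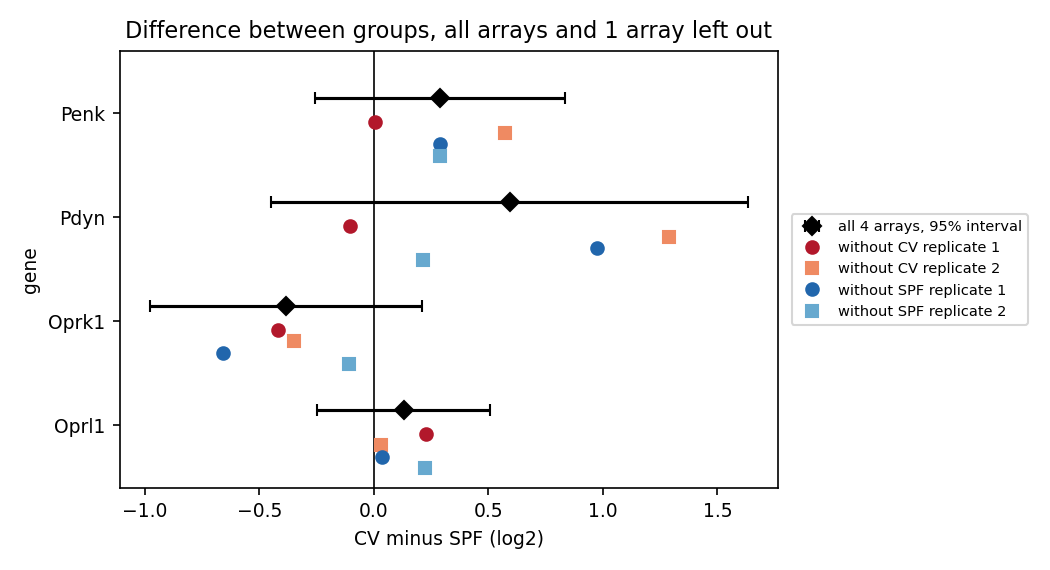
Difference between CV and SPF (log2, horizontal axis) for the 4 tested genes; diamonds with bars are the fit to all 4 arrays with its 95% interval, and coloured symbols below each are the fits that leave out 1 array. All 4 intervals include 0, and Pdyn runs from -0.11 to 1.29 depending on the array left out.

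The replicate 1 arrays stood above the replicate 2 arrays in Pdyn and in markers of several cell types. In the brighter Pdyn probe both replicate 1 arrays were above both replicate 2 arrays, as in 21.5% of all features. Of 10 tested markers of dorsal horn excitatory neurons 7 showed this split, of 7 astrocyte markers 4, of 7 microglia markers 5, of 6 neutrophil markers 4, of 6 skeletal muscle markers 3 and of 6 oligodendrocyte markers 3. Of 8 tested markers of dorsal horn inhibitory neurons 2 did, and of 6 motor neuron, 6 endothelial and 11 meningeal fibroblast markers 0 did.

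The mean level of the 10 excitatory markers was 11.08 and 10.52 in CV and 11.03 and 10.45 in SPF, the same order of arrays as in Pdyn. Of the 10 genes 3 followed that full order (4.86% of all features did). All 3 encode peptides, as do most genes of that list. The order was also followed by 2 of 8 inhibitory markers, Gal and Npy, which encode peptides too, and by 2 of 7 astrocyte markers. Among the excitatory genes with this order, Tac1, which encodes substance P, had levels of 11.62 and 10.44 in CV and 10.47 and 9.62 in SPF. Grp, which encodes gastrin-releasing peptide, had 9.60 and 8.75 in CV and 9.47 and 8.30 in SPF, and Nmu, which encodes neuromedin U, had 11.45 and 10.47 in CV and 11.43 and 10.43 in SPF.

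The other 4 peptide genes of the excitatory list did not follow the order of Pdyn. Tac2, which encodes neurokinin B, had 9.52 and 8.60 in CV and 9.81 and 8.89 in SPF. Nts, the neurotensin precursor, had 7.74 and 7.09 in CV and 8.09 and 7.45 in SPF. In these and in Sst, the somatostatin precursor (12.64 and 12.21 in CV, 12.93 and 12.19 in SPF), SPF replicate 1 was the highest array. Cck, the cholecystokinin precursor, had 9.75 and 9.70 in CV and 9.68 and 9.71 in SPF, with no split between replicates.

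Several marker lists also differed between the groups or between single arrays. Each of 6 motor neuron genes was higher in CV, with a median difference of 0.70 and list means of 8.29 and 8.62 in CV and 7.52 and 8.09 in SPF. Of 6 endothelial markers 4 were higher and 2 lower, with means of 8.70 and 8.77 in CV and 8.29 and 8.65 in SPF and a median of 0.34. Neutrophil markers had means of 8.92 and 6.93 in CV and 7.21 and 6.95 in SPF, with CV replicate 1 apart from the rest.

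Lower in CV were all 4 red blood cell genes (means 11.17 and 10.50 in CV, 12.16 and 11.57 in SPF, median -1.07) and 6 of 6 skeletal muscle genes (6.77 and 6.15 in CV, 8.01 and 6.75 in SPF, median -0.94). The muscle list means overlapped between the groups, and the muscle gene Ckm was above background on the SPF arrays alone. Of the microglia markers 6 of 7 were lower (median -0.28), with overlapping means of 8.04 and 7.66 in CV and 8.29 and 7.78 in SPF. Further probes of the microglia genes Csf1r and Aif1 went the other way (0.1 and 0.09). Of the oligodendrocyte markers 6 of 6 were lower (median -0.14). Meningeal fibroblast genes had means of 8.49 and 6.95 in CV and 7.67 and 9.56 in SPF, so the groups overlapped. No marker passed the test, and the part of these differences in the values of the opioid genes was not tested.

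**Figure D3:**
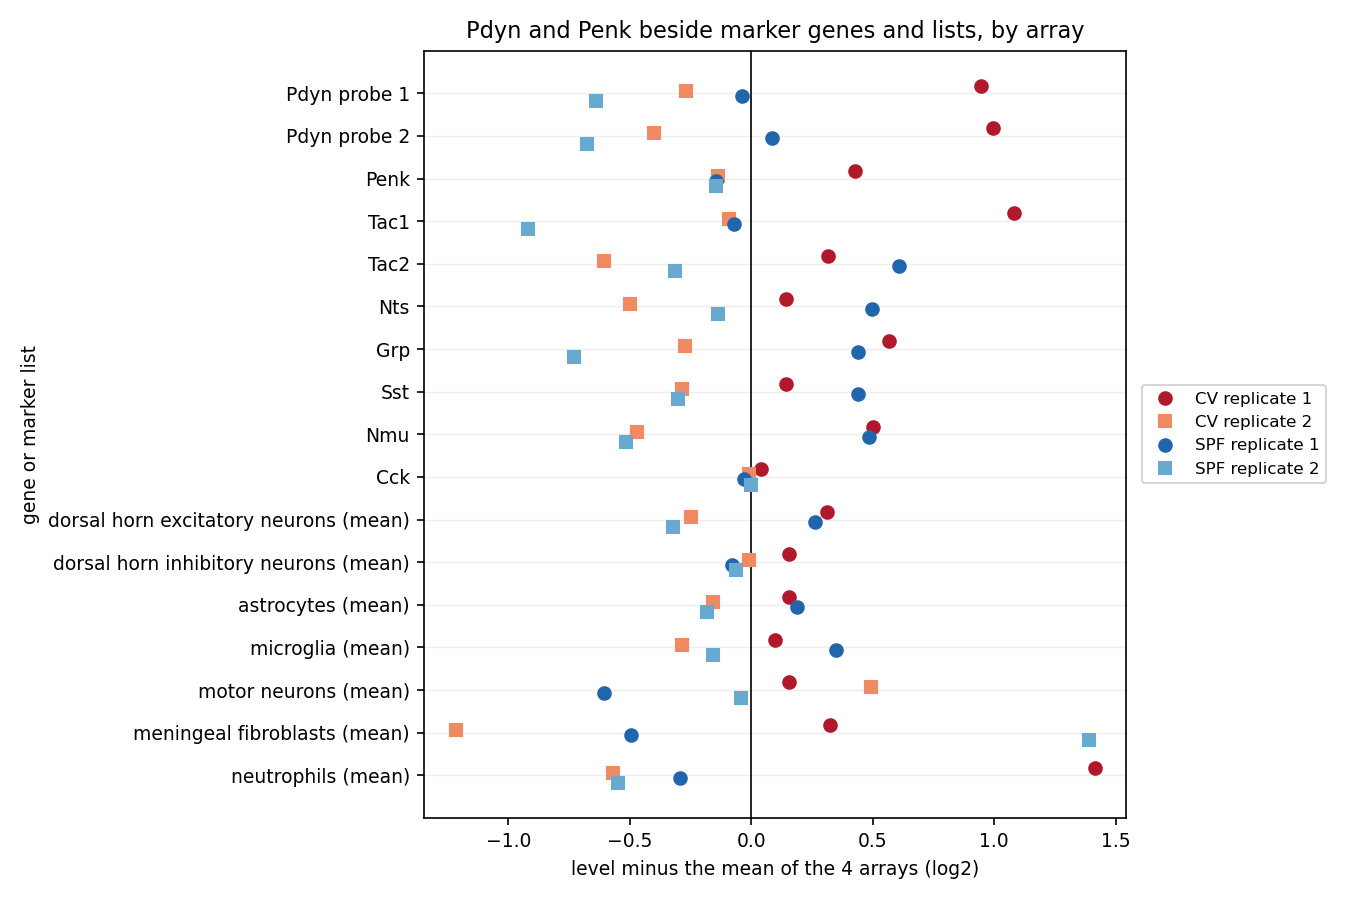
Level on each array minus the mean of the 4 arrays (log2, horizontal axis) for the Pdyn and Penk probes, the 7 peptide genes among the excitatory dorsal horn markers and the means of 7 marker lists. CV replicate 1 is the highest array for Pdyn, Penk, Tac1, Grp, Nmu and Cck, and SPF replicate 1 for Tac2, Nts and Sst.

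Pdyn was the tested member whose levels spanned at least 1 log2 unit, and the genes most like it were sought among 11475 named genes. Likeness was measured over the 4 arrays as the largest gap on any array between the centred levels of both genes. The closest were Pdk4, which encodes a pyruvate dehydrogenase kinase (largest gap 0.15), Ggt5, which encodes a gamma-glutamyltransferase (0.18), and Gal, the galanin precursor (0.19). Gal, which was in the list of inhibitory dorsal horn markers, had levels of 11.62 and 10.04 in CV and 10.36 and 9.82 in SPF. Pdk4 had 9.11 and 7.71 in CV and 8.14 and 7.22 in SPF. Each had CV replicate 1 on top and SPF replicate 2 at the bottom, and each differed by 0.73 or 0.74 between the groups with an adjusted p of 1 in limma's test. Ggt5 was above background on 1 of 2 SPF arrays. With 4 arrays, many genes can take the same order.

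Around the peptides and receptors, 93 further genes of opioid peptide processing, breakdown and signalling were listed, of which 68 were tested. None passed limma's test at an adjusted p of 0.05, and 4 had an unadjusted p under 0.05. That is 5.88%, beside 3.03% of all features. In CV cord 39 were higher and 29 lower, with a median difference of 0.02, against a median near 0 over all features (-0.0003). Of the 68, both CV arrays were above both SPF arrays in 16 and below them in 5. Over all features this held in 15.6% and 15.1%, and either way in 30.8%.

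No tested enzyme that makes the peptides passed the test. Of 11 listed, 7 were tested, with 5 higher, 2 lower and a median of 0.02 (0.15 without SPF replicate 1). Pam, which amidates peptides, differed by 0.29 ± 0.21 and Scg5, a helper protein of the prohormone convertase encoded by Pcsk2, by 0.20 ± 0.10. In both of these, and in the carboxypeptidase gene Cpe (0.18 ± 0.12), both CV arrays were above both SPF arrays, 3 of the 7 tested, beside 15.6% of all features. The convertase gene Pcsk1 was not above background on any array.

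The peptidases that break opioid peptides down were split evenly, with 10 of 13 tested, 5 higher, 5 lower and a median of 0.01. Tpp2, a tripeptidyl peptidase, differed by 0.24 ± 0.19. Anpep, the aminopeptidase N that removes the first residue of enkephalins, differed by -0.21 ± 0.28, and Mme, the neprilysin that also cleaves them, by 0.17 ± 0.21.

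Downstream of the receptors, 11 of 12 G protein subunit genes were tested (5 higher, 6 lower, median -0.0003). Gnb2 differed by -0.24 ± 0.11 and Gnai1 by -0.23 ± 0.16, and in both the CV arrays were below the SPF arrays, as in 15.1% of all features. In Gng7 (0.12 ± 0.13) they were above. Of 14 potassium and calcium channel, adenylyl cyclase and phospholipase genes 11 were tested (5 higher, 6 lower, median -0.03), with Adcy1 at -0.22 ± 0.15 and Cacna1e at -0.20 ± 0.26. Cacna1e was above background on 1 of 2 CV arrays and on both SPF arrays.

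The receptor regulators included the most negative difference of the 68 genes. Of 22 listed, 16 were tested, with 8 higher, 8 lower and a median of 0.01. Rgs19, which speeds the switching off of inhibitory G proteins, had levels of 5.50 and 5.18 in CV and 5.90 and 6.21 in SPF. It differed by -0.72 ± 0.24 (unadjusted p = 0.0190, adjusted p = 1 in limma's test), and a further probe gave -0.28 ± 0.27. Wls, which carries Wnt proteins to the cell surface, differed by -0.44 ± 0.17 (unadjusted p = 0.0392, adjusted p = 1), and its further probes gave -0.39, -0.38 and 0.21.

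Among other receptors of opioid peptides or of peptides cut from Pomc, with their accessory proteins, 4 of 11 were tested (3 higher, 1 lower, median 0.04). The melanocortin receptor gene Mc4r differed by 0.57 ± 0.28, with levels of 6.84 and 6.30 in CV and 6.26 and 5.75 in SPF. Mc5r differed by -0.69 ± 0.35 and was above background on 1 of 2 CV arrays. The opioid growth factor receptor gene Ogfr, which binds an enkephalin, differed by 0.04 ± 0.15.

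Genes that regulate Pdyn and Penk or follow neuronal activity were mostly higher in CV cord, though none passed the test. The list, like all lists here, was chosen with earlier results of these data known, so its counts are not independent support. Of 10 listed, 9 were tested and 8 were higher, beside 7304 of all 14634 features. The list had a median of 0.39, beside -0.0003 over all features. The median was 0.28 without background correction and 0.19 in the authors' deposited table. In 6 of the 9 both CV arrays were above both SPF arrays, beside 15.6% of all features. Bdnf, a neurotrophin gene, had levels of 8.65 and 7.87 in CV and 7.43 and 7.21 in SPF and differed by 0.94 ± 0.28 (unadjusted p = 0.0115, adjusted p = 1 in limma's test). Its further probes gave 0.91 and 0.32.

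Fosb, a transcription factor gene induced by activity, had levels of 7.28 and 6.95 in CV and 6.21 and 6.19 in SPF and differed by 0.91 ± 0.22 (unadjusted p = 0.00398, adjusted p = 1). Creb1, which encodes the factor that binds the cyclic AMP response element, differed by 0.34 ± 0.19. Kcnip3, which encodes DREAM, a repressor of Pdyn, differed by -0.11 ± 0.14, with overlapping groups. Unlike Pdyn, both Bdnf and Fosb had CV replicate 2 above both SPF arrays.

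**Figure D4:**
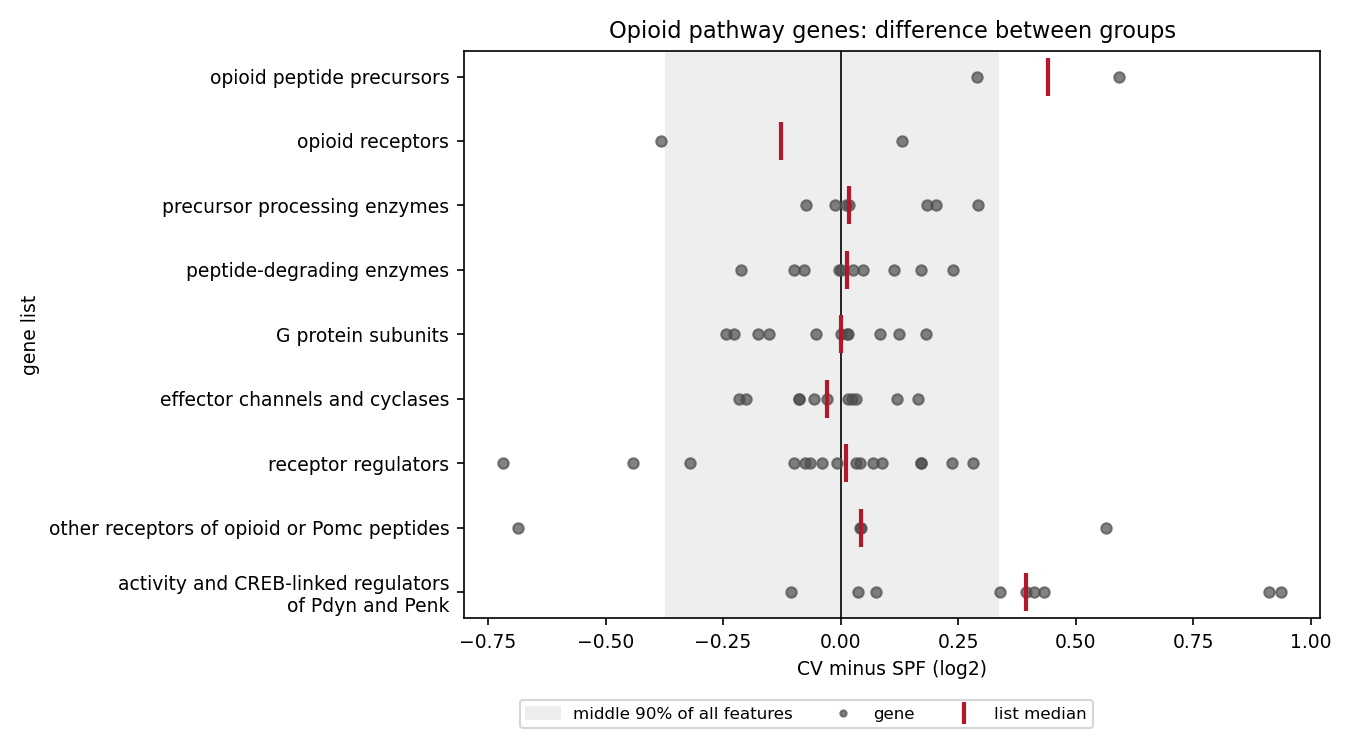
Difference between CV and SPF (log2, horizontal axis) of each tested gene (grey points) in 9 lists, with the list median as a red bar; the grey band holds the middle 90% of all features, from -0.37 to 0.33. Most genes lie inside the band, and the activity-linked list has a median of 0.39.

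The arrays were alike in the share of probes above background and in their correlations, which do not measure RNA quality or dissection. Between 44.9% and 46.3% of probes were above background on each. Pairs of arrays correlated across features at 0.986 to 0.990, and the 2 closest pairs joined the arrays of the same number in different groups. All 7 astrocyte markers, the 6 of 7 oligodendrocyte markers that had a probe and 6 of 8 motor neuron markers were kept. Of 8 markers of dorsal root ganglion neurons, whose terminals carry mu receptors, 7 had a probe and 1, Tlx3, which dorsal horn neurons also use, was kept. Scn10a and Avil each had a probe above background on some array, though not on enough to be kept, and Scn11a, Trpv1, Mrgprd and P2rx3 had none.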

How the data were processed

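The files hold bead signals that the authors deposited as intensity, unnormalized per the file headers, and beside each signal a detection p-value, likewise per the file headers. The authors' normalized table, also intensity, served as an alternative. The submitters' processing notes name lumi without version or settings.

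Background correction and quantile normalization were done by neqc (limma 3.58.1 under R 4.3.3), with 16 as the offset before log2 was taken. Probes with a detection p under 0.05 on at least 2 of 4 arrays were kept (21065), and the brightest probe stood for a gene. This gave 14634 features, 11476 of them named through the platform annotation. CV was compared with SPF by a linear model (lmFit, eBayes with trend). Its two-sided p-values were adjusted by Benjamini and Hochberg's method over all features. The fit was tested on simulated data.

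The 8 genes and all lists were chosen with earlier results of these data known. Named beside the members are the 2 genes of largest absolute difference in each list and the 3 genes most like a member spanning 1 log2 unit. Cpe, Mme, Ogfr, Creb1, Kcnip3, Pcsk1, Gng7, Gh, Ckm, Csf1r, Aif1 and the dorsal horn peptide genes were chosen after their values were seen. No slide or scan batch is named in the files. The number of arrays limits the precision. Promoter sequences come from a RefSeq table of GRCm38.p6, which holds 5 of the 8 genes.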

Additional observations from a re-analysis of the deposited data

How the results depend on the processing

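The 4 tested genes stayed past no threshold under 12 alternatives of background correction, normalization, filter, probe choice, variance model and replicate block (11 for Oprk1, which a detection p under 0.01 on all arrays leaves out) and under 4 fits without 1 array each. Outside those 4 fits the difference ranged from 0.56 to 0.63 in Pdyn, from 0.14 to 0.29 in Penk, from -0.40 to -0.06 in Oprk1 and from 0.06 to 0.13 in Oprl1. With 1 array left out it ranged from -0.11 to 1.29 in Pdyn, which turned negative without CV replicate 1, from 0.01 to 0.57 in Penk, from -0.66 to -0.11 in Oprk1 and from 0.03 to 0.23 in Oprl1. The number of features past the threshold, 0 with all arrays, was 0 to 2 with 1 array left out (2 without CV replicate 2), where the lone array of a group is assumed to vary like the others. With the replicate number as a block it was 5, and Pdyn differed by 0.59 ± 0.15 (unadjusted p = 0.00548, adjusted p = 0.521 in limma's test). The labels do not say that a number marks a shared litter or day, and there are 2 pairs, so the arrays are not taken as pairs, although deviations of same-numbered arrays correlated at 0.20 across features. The member probes above background on all arrays were 7, and 5 at a detection p under 0.01. Of 144 list medians under the alternatives, 140 moved by less than the spread between replicates. The variance models and the replicate block cannot move a median, and that spread is wide with 2 arrays per group. The count therefore does not show that the medians are stable. The median of the 2 tested precursors, 0.44, was -0.05 without CV replicate 1 and 0.93 without CV replicate 2, and that of the receptors, -0.13, was 0.13 with 3 other detection filters, which change the receptors tested. The signals of Pnoc, Pomc and Oprm1 near background leave their changes unmeasured.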
